A study of Homo sapiens with 22 samples.

Results

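Residual H3122 xenografts in hHGF-NSG hosts were examined through their mouse genes, which stand for the host tissue around the human tumour cells. The members are the mouse genes of 6 libraries, 3 from therapy-naive tumours and 3 from tumours after 6 weeks of alectinib, of 20 libraries with mouse values and 22 samples in the series. H3122 is a human lung adenocarcinoma cell line driven by an ALK fusion, and alectinib is an inhibitor of the ALK kinase. NSG mice lack mature T, B and NK cells, a trait that every group shares, and hHGF-NSG hosts carry human HGF in addition. The labels give no mouse age, no site of implantation, no drug dose and no construct for the human HGF, and they do not say that each library came from its own animal. All p-values therefore measure the spread between these libraries, which may be technical. The series also holds hHGF-NSG tumours after 2 weeks (4 libraries) and the same 3 states in plain NSG hosts (3, 4 and 3 libraries with mouse values).

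The stroma of a xenograft is built entirely by the host. It holds fibroblasts, which lay down collagen and, when activated, contract as myofibroblasts, together with vessels, their pericytes, macrophages, granulocytes and, where a tumour borders fat, adipocytes. HGF is a ligand made by such mesenchymal cells, its receptor MET sits on epithelial tumour cells, and mouse HGF activates human MET poorly, which is the usual reason to graft human tumours into hosts with the human ligand.

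The 3 naive libraries held 1127966, 1634793 and 2471749 mouse reads and the 3 libraries at 6 weeks held 4610522, 5766509 and 4356095, so every library at 6 weeks was deeper than every naive one. Mouse reads were 6.81%, 8.93% and 13.48% of all reads in the naive tumours and 24.3%, 28.63% and 28.95% at 6 weeks. The mean share was 9.74 ± 3.41% and 27.29 ± 2.6% (SD), the groups did not overlap, and the exact two-sided permutation p was 0.1, the smallest that 3 against 3 samples allow. Epithelial genes, which the human tumour cells express, had few mouse reads, though not equally few. Summed over the 3 naive libraries, Epcam had 1 mouse read beside 36024 human reads and Krt8 had 3 beside 281631, whereas Krt19 had 41 beside 77072 and Esrp1 had 70 beside 5652. Per 100 human reads, the 8 simple epithelial genes compared had 0 (Krt18, Elf3) to 1.238 (Esrp1) mouse reads in naive tumours. At 6 weeks Muc1 reached 4.348. The keratinocyte gene Krt14 stood far above them, at 40.625 in naive tumours and 50 at 6 weeks. How many of these reads came from human cells was not tested. One library outside the 6 went against its label. Human HGF, read in all 10 hHGF-NSG libraries (13 to 79 reads), was at 0 to 6 reads in 11 NSG libraries and at 43 reads in the library labelled NSG naive replicate 1. The main counts of calls and the host differences of Tnn, Hc and Med9 are therefore also given without it. Other values from NSG hosts, among them list counts and changes of single genes, include it.

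Defining markers of the expected stromal cells were present in both states. Col1a1, the main chain of fibrillar collagen, was at 2985, 3196 and 4379 FPKM in the naive libraries and 1922, 1773 and 1514 at 6 weeks. FPKM scales a gene's reads by its length and by the library's depth, so it compares genes per length. Endothelial Pecam1 stood at 51.1, 52.6 and 54.8 FPKM and then 30.1, 29 and 39.7, and the macrophage gene C1qa at 1173, 883 and 880 and then 1017, 739 and 803. The lymphocyte markers Cd3e, Ncr1 and Ms4a1 had no read in any of the 6 libraries. In bulk tissue, fewer cells of a type and less RNA per cell cannot be told apart, and this holds for every difference below.

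Between the naive state and 6 weeks, 2541 of 14287 tested mouse genes (17.8%) passed limma's test at an adjusted p under 0.05. Of these 1381 (9.67%) were higher at 6 weeks and 1160 (8.12%) lower, and 842 and 558 of them changed at least 2-fold. The median change over all tested genes was 0.06. The counts of list members below stand beside these shares of all tested genes, and no list was tested against them. All changes are differences of log2(FPKM + 1), a scale on which low genes show less than their true fold, and adjusted p-values are limma's with Benjamini-Hochberg adjustment over all tested genes. Without the library labelled NSG naive replicate 1, which enters only through the shared estimate of spread, 2666 genes were called, 2511 of them among the 2541. The count fell to 1645 without 6 weeks replicate 2.

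The largest rises joined fat genes with secreted and developmental genes, and the largest falls joined granzymes, a mast cell or basophil protease, contractile genes and proteases. By rule these are the 12 largest changes per direction among 1881 called protein-coding genes whose 2 groups did not overlap and whose higher group averaged 5 FPKM or more. The rises were Nnat, Cox8b, Dbp, Dgat2, Penk, Inmt, Adrb3, Apod, Tcf15, Sfrp5, Ces1d and Cidea, with log2 changes of 3.73 to 4.61. Those that fell were Gzme, Gzmd, S100a9, Actg2, Mmp13, Gzmc, Ankrd1, Mcpt8, Cnn1, Cemip, Esm1 and Pgf, with changes of -3.48 to -6.45.

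**Figure D1:**
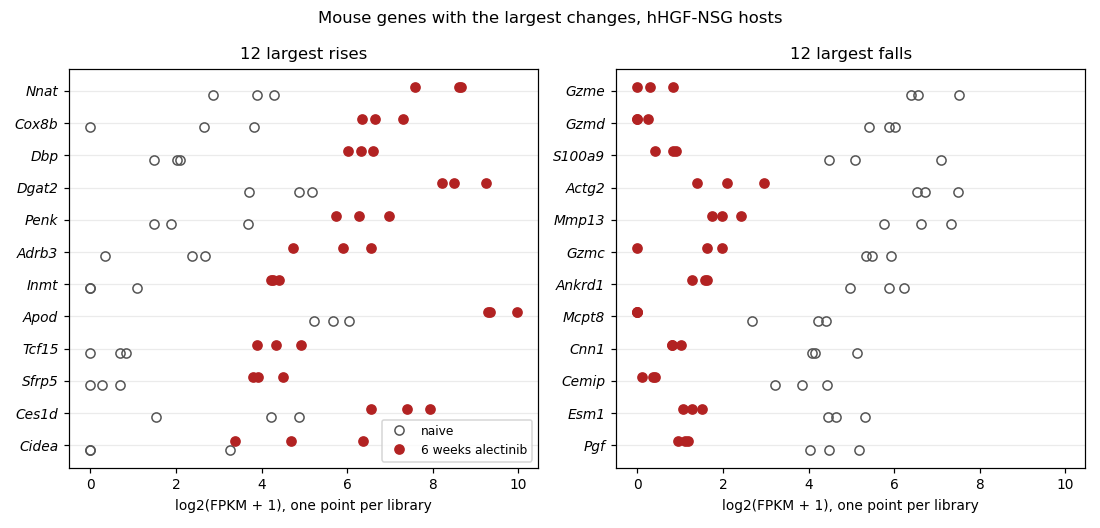
Levels of the 12 mouse genes with the largest rise (left) and the 12 with the largest fall (right) in hHGF-NSG tumours, one point per library on a log2(FPKM + 1) axis, open for naive and filled for 6 weeks of alectinib. Each gene's 2 groups stand apart, as the rule for choosing them required, and the spread within a group is widest for Cox8b among the rises and S100a9 among the falls.

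Genes of white fat were the most uniform group: all 18 listed members were tested and all 18 rose, with a median change of 2.93 against 0.06 over all tested genes. Adipoq, which encodes the fat cell hormone adiponectin (mm10 chromosome 16, 23146536 to 23158028, plus strand), was at 48.6, 158 and 162 FPKM in the naive libraries and at 490, 979 and 1045 at 6 weeks. The groups were far apart, naive replicate 1 was the lowest library, and the change was 2.87 (SE 0.56, adjusted p = 0.00169). Lep, encoding the satiety hormone leptin, rose from 6.19 ± 4.89 to 59.5 ± 4.79 FPKM (SD, log2 change 3.37). Dgat2, which makes triglyceride, rose most of the list, from 12, 35.3 and 28.1 FPKM to 296, 603 and 362 (4.07, SE 0.54, adjusted p = 9.52e-05). The lipases and droplet proteins moved with them: Lipe, hormone-sensitive lipase, went from 18.4 ± 10.9 to 163 ± 60.1 FPKM, and Plin1, which coats the lipid droplet, from 34.2 ± 21.6 to 252 ± 102. Adrb3, the adrenergic receptor that starts fat breakdown, had 1, 31 and 37 reads in the naive libraries and 420, 1776 and 873 at 6 weeks. Summed over the list, white fat genes took 1020 to 3164 FPKM in a naive library and 10020 to 19187 at 6 weeks.

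Thermogenic fat genes moved less evenly, with 2 of 7 tested members called, both higher, and a median of 1.18. Ucp1 was not called, at 0 in naive tumours and 3.02 ± 4.65 FPKM at 6 weeks (1.35, adjusted p = 0.153). Kcnk3, Ppara, Cox7a1 and Dio2 were not called either, with changes of 1.18, 0.81, 0.55 and -0.39. Elovl3 and Ppargc1a were too low to test. Cox8b, a muscle and brown fat subunit of cytochrome oxidase, was at 0, 13.1 and 5.31 FPKM in naive tumours and 80.6, 156 and 99.1 at 6 weeks (4.6, SE 1.06, adjusted p = 0.00528). Cidea, a lipid droplet protein of brown fat, was at 0, 8.63 and 0 and then 9.44, 82 and 24.9 (3.73, SE 0.88, adjusted p = 0.00615), with 6 weeks replicate 1 only just above naive replicate 2. Its call was lost when the fit used the 6 libraries alone (adjusted p = 0.0793). Other genes of the largest rises are also read in fat: Ces1d, a carboxylesterase whose family has near-identical copies and whose value is therefore uncertain, went from 1.87, 28.5 and 17.7 FPKM to 93.3, 243 and 168. How far the fat content of the sampled tissue moves with other results was not tested, and the summed fat levels above stand beside all of them.

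General fibroblast genes did not move one way: of 15 tested members 2 rose and 2 fell, with a median of -0.02. These counts stand beside 9.67% called higher and 8.12% called lower over all tested genes. Pdgfra, the receptor that marks fibroblasts, was at 21.9, 18.3 and 23.3 FPKM and then 23.2, 20 and 21.5, groups that overlapped fully (0.03, SE 0.16, adjusted p = 0.924). Gsn, the actin-severing gelsolin, rose from 226, 296 and 410 FPKM to 1388, 2076 and 1460 (2.42, SE 0.31, adjusted p = 8.27e-05). Cd248, endosialin of activated fibroblasts and pericytes, fell from 108, 103 and 135 to 61, 47.3 and 32.2 (-1.32, adjusted p = 0.00138), and Col15a1 fell from 72 ± 17.4 to 34 ± 2.24 FPKM.

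Contractile genes of myofibroblasts and smooth muscle fell: 12 of 15 tested members, none rose, and the median was -1.24. Acta2, smooth muscle actin and the usual marker of activated fibroblasts, was at 899, 604 and 583 FPKM in naive tumours and 181, 152 and 75.6 at 6 weeks. The highest library at 6 weeks lay well below the lowest naive one (-2.41, SE 0.39, adjusted p = 0.000437). Actg2, the enteric smooth muscle actin, fell from 178, 91.1 and 104 to 6.79, 3.28 and 1.62 (-4.76, SE 0.67, adjusted p = 0.000148), and reads of actin genes with near-identical coding sequence could be split between them. Cnn1, calponin, which binds actin in contractile cells, fell from 34.2, 15.8 and 16.8 FPKM to 0.757, 1.03 and 0.752 (-3.57, adjusted p = 0.000109). Tropomyosins Tpm1 and Tpm2 fell from 160 ± 41.2 to 50.8 ± 12.2 and from 62 ± 23.7 to 16.7 ± 4.25. Ankrd1, a strain-responsive nuclear protein and a common target of the YAP coactivator, stood outside that list and fell from 74.6, 58 and 30.1 to 2.11, 2 and 1.43 (-4.19, adjusted p = 0.00013).

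Collagen genes were lower where they were called at all, and Col1a1, Col1a2 and Col3a1 did not pass. Among 12 fibrillar and fibril-associated collagens 5 fell and none rose (median -0.75), and among 10 basement membrane and network collagens 7 fell and none rose (median -1.16). Col1a1 changed by -1.01 (SE 0.36, adjusted p = 0.0617), and voom on the recovered reads called it lower (-1.0, adjusted p = 0.0222). Col1a2 changed by -0.56 (adjusted p = 0.284) and Col3a1 by -0.57 (adjusted p = 0.314). The regulatory type V chain Col5a1 fell from 274, 286 and 404 FPKM to 88.9, 88.3 and 68.1 (-1.95, SE 0.29, adjusted p = 0.000222), with no overlap between the groups. Its partner Col5a2 went from 342 ± 59.8 to 133 ± 17.6 FPKM. Type IV collagen, the sheet of basement membranes, fell in both of its main chains: Col4a1 was at 258, 300 and 408 and then 109, 145 and 87.8 (-1.5, SE 0.26, adjusted p = 0.000731), and Col4a2 dropped from 235 ± 50.4 to 76.5 ± 23.1. Col18a1, the source of endostatin, fell by 1.41 and the anchoring fibril Col7a1 by 1.66 on the log2 scale.

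Laminins and nidogens, the other basement membrane proteins, had 4 of 13 tested members called, all lower (median -0.41). Nid2 fell from 15.5, 24.2 and 25.8 FPKM to 8.57, 8.64 and 5.35 (-1.42, SE 0.26, adjusted p = 0.00117), with no overlap. The other called members, Lamb1, Nid1 and Lama4, had changes of -0.87, -0.51 and -0.51 and adjusted p-values of 0.0245, 0.0481 and 0.0497. These calls are fragile: the list kept 2 called members without naive replicate 2 and 1 without 6 weeks replicate 3, and without naive replicate 3 it had 1 lower and 1 higher.

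Enzymes that fold and crosslink collagen fell in 8 of 17 tested members and none rose (median -0.72). Lox, lysyl oxidase, which crosslinks collagen and elastin outside the cell, was at 392, 285 and 268 FPKM and then 89.3, 82.7 and 96.3, a narrow group at 6 weeks far below the naive one (-1.79, SE 0.2, adjusted p = 1.27e-05). Loxl2, a second enzyme of the family, fell further, from 146, 108 and 89.7 to 21.2, 19.7 and 21.7 (-2.37, SE 0.26, adjusted p = 1.27e-05). Prolyl and lysyl hydroxylases, which act on collagen inside the cell, followed: P4ha1 went from 48.3 ± 13.5 to 21.9 ± 2.82 FPKM and Plod2 from 17.8 ± 5.35 to 7 ± 0.89. Human LOX, read in the same tumours' human table, went from a mean of 38.7 to 0.333 FPKM, and whether human reads entered the mouse value was not tested.

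Elastic fibre and matricellular genes changed in both directions, with 3 of 20 tested members higher and 10 lower (median -0.91). Fbn2, the fibrillin of developing tissue, fell from 13.4, 19.2 and 21.3 FPKM to 1.5, 0.857 and 0.829 (-3.19, SE 0.25, adjusted p = 2.86e-07). Tnc, tenascin C of wounds and tumour stroma, was at 172, 175 and 150 and then 28, 26.2 and 8.33 (-3.1, SE 0.43, adjusted p = 0.000124), and Thbs1, a thrombospondin that can activate latent TGF-beta, fell from 582 ± 49.1 to 105 ± 54.3. In the human table FBN2 and TNC were also lower at 6 weeks, at 22.1 and 0.247 FPKM and at 54.3 and 0.71. Summed over 3 libraries, Tnc had 6865 mouse reads beside 22960 human reads in naive tumours and 2490 beside 279 at 6 weeks, and whether human reads entered the mouse values was not tested. Thbs4, another thrombospondin, moved the other way, from 27.4, 21.8 and 35.7 FPKM to 110, 110 and 177 (2.18, SE 0.36, adjusted p = 0.000501).

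Small leucine-rich proteoglycans, which sit on collagen fibrils and set their width, rose in 4 of 9 tested members and none fell (median 0.55). Omd, osteomodulin, had 0, 1 and 1 reads in the naive libraries and 119, 158 and 121 at 6 weeks, or 0.144 ± 0.133 and 11.9 ± 0.792 FPKM (3.5, SE 0.38, adjusted p = 1.32e-05). Ogn rose from 30.6 ± 9.18 to 90 ± 8.61, Prelp from 69.7 ± 11 to 174 ± 18 and decorin, Dcn, from 155, 174 and 142 FPKM to 333, 308 and 544. Lum, lumican, overlapped between the groups, at 199, 181 and 138 and then 161, 166 and 384 (0.34, adjusted p = 0.598).

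Matrix metalloproteinases and their inhibitors had 2 higher and 6 lower of 17 tested members (median -0.76). Mmp13, the main rodent collagenase, fell from 161, 97.8 and 53.5 FPKM to 2.95, 2.37 and 4.36 (-4.52, SE 0.63, adjusted p = 0.000127), and Mmp10, a stromelysin, from 47.2, 12.7 and 12 to 0.602, 0.613 and 1.59 (-3.44, adjusted p = 0.00019). Timp1, an inhibitor induced in wounds, fell from 278 ± 61.1 to 86.2 ± 11.5. Timp4, an inhibitor read in fat and heart, went up from 0.6, 0.802 and 0.324 to 10.8, 13.3 and 19.3 (3.27, SE 0.5, adjusted p = 0.000256). Mmp11, a metalloproteinase of tumour fibroblasts, rose as well, from 19.4, 13.8 and 24.1 to 57.4, 64.8 and 105. Cemip, which degrades hyaluronan and belongs to none of these lists, fell from 20.7, 8.36 and 13.4 FPKM to 0.288, 0.331 and 0.0748.

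Ligands and response genes of the TGF-beta pathway, which drives myofibroblasts, had 1 higher and 7 lower of 16 tested members (median -0.59). Among ligands, Inhba, the activin A subunit, fell from 36.9, 32 and 20.5 FPKM to 4.77, 4.88 and 2.47 (-2.61, SE 0.39, adjusted p = 0.000217), while Tgfb3 rose from 56.2, 41.1 and 55.2 to 168, 123 and 87.3 (1.26, SE 0.21, adjusted p = 0.00046). The number called depended on single libraries: 1 higher and 3 lower were left without naive replicate 1 and without naive replicate 2, and 1 and 2 without 6 weeks replicate 2 and without 6 weeks replicate 3.

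Wnt and Hedgehog genes had 5 higher and 3 lower of 13 tested members (median 0.47). Gli1, the transcription factor that Hedgehog signalling switches on, had 2, 10 and 1 reads in naive tumours and 132, 98 and 114 at 6 weeks, or 0.354, 1.18 and 0.0765 FPKM and then 5.48, 3.45 and 5.22 (1.94, SE 0.3, adjusted p = 0.000297). Of the secreted Wnt antagonists, Sfrp1 fell from 28.5, 39.8 and 53.9 to 17.7, 12.1 and 12.9 (-1.43, adjusted p = 0.00133). Sfrp5, made by fat cells and outside the list, rose from 0, 2 and 1 reads to 119, 153 and 179 (3.75, SE 0.59, adjusted p = 0.000335). Without naive replicate 1 and without 6 weeks replicate 1 the list had 3 higher and 2 lower, and without naive replicate 3 it had 4 and 1.

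Growth factors for receptor kinases had 2 higher and 5 lower of 17 tested members (median -0.12), beside 9.67% and 8.12% of all tested genes. Fgf10, a ligand of epithelial FGF receptors, rose from 0.576, 0.771 and 0.664 FPKM to 4.14, 9.34 and 6.36 (2.13, SE 0.3, adjusted p = 0.000146). Hbegf, an EGF receptor ligand, fell from 20.1, 13.5 and 12.2 to 3.93, 2.6 and 2.89 (-1.96, SE 0.34, adjusted p = 0.000729), and Pdgfa, a ligand for fibroblasts, fell from 16.2 ± 2.95 to 7.25 ± 1.82. Igf1 rose from 18.3 ± 5.82 to 37 ± 5.57 FPKM (1.01, adjusted p = 0.0029), a call lost when the fit held the 6 libraries alone (adjusted p = 0.0527). Without 6 weeks replicate 3 the list had 2 higher and 2 lower.

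Mouse Hgf was low in both states, with 1, 20 and 20 reads in the naive libraries and 21, 38 and 6 at 6 weeks. In FPKM these are 0.123, 1.65 and 1.06 and then 0.606, 0.931 and 0.191, groups that overlapped (-0.24, SE 0.35, adjusted p = 0.689). Human HGF, carried by this host, had 13, 28 and 44 reads in the naive libraries and 79, 60 and 13 at 6 weeks. In the human table these averaged 0.195 and 0.359 FPKM, a scale set by human reads and not by the reads of host tissue. Since the mouse share rose from 9.74% to 27.29%, the 2 means do not compare its level per host tissue. They also cannot be set against the FPKM of mouse Hgf. Among genes that activate HGF or sense it, 1 of 5 tested rose and 1 fell. Plau, urokinase, which can cleave the HGF precursor, fell from 102, 84.2 and 72.2 FPKM to 35.1, 32.4 and 35.1 (-1.29, SE 0.22, adjusted p = 0.000493). Mouse Met was at 1.27, 1.77 and 1.69 and then 2.86, 4.98 and 4.65 (0.98, SE 0.3, adjusted p = 0.03). That call was lost without naive replicate 1, 2 or 3 (adjusted p = 0.0978, 0.0537 and 0.051) and without 6 weeks replicate 2 or 3 (0.121 and 0.104).

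Cytokines and chemokines of inflamed fibroblasts had 2 higher and 8 lower of 19 tested members (median -1.11). Saa3, an acute phase protein, fell from 56.6, 19.5 and 11.3 FPKM to 0.954, 0.878 and 4.12 (-3.2, SE 0.6, adjusted p = 0.00117). Ptgs2, cyclooxygenase 2, which makes prostaglandins, fell from 36.9, 26.9 and 16.1 to 3.39, 3.92 and 2.75 (-2.6, SE 0.47, adjusted p = 0.000869), and Il1b from 38, 23.3 and 11.6 to 3.69, 4.43 and 4.92. Ccl7, a monocyte attractant, went from 100 ± 33.5 to 31.2 ± 12.6. In each of these 4 genes naive replicate 1 was the highest library. Complement genes had 4 higher and none lower of 14 tested members (median 0.21), beside 9.67% and 8.12% of all tested genes. C1ra, a protease that starts the classical pathway, rose from 57.2, 55.5 and 61.5 FPKM to 147, 117 and 107 (1.07, SE 0.16, adjusted p = 0.000258), C1s1 from 106 ± 6.69 to 174 ± 19.8 and C2 from 16.5 ± 3.59 to 33.9 ± 6.27.

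**Figure D2:**
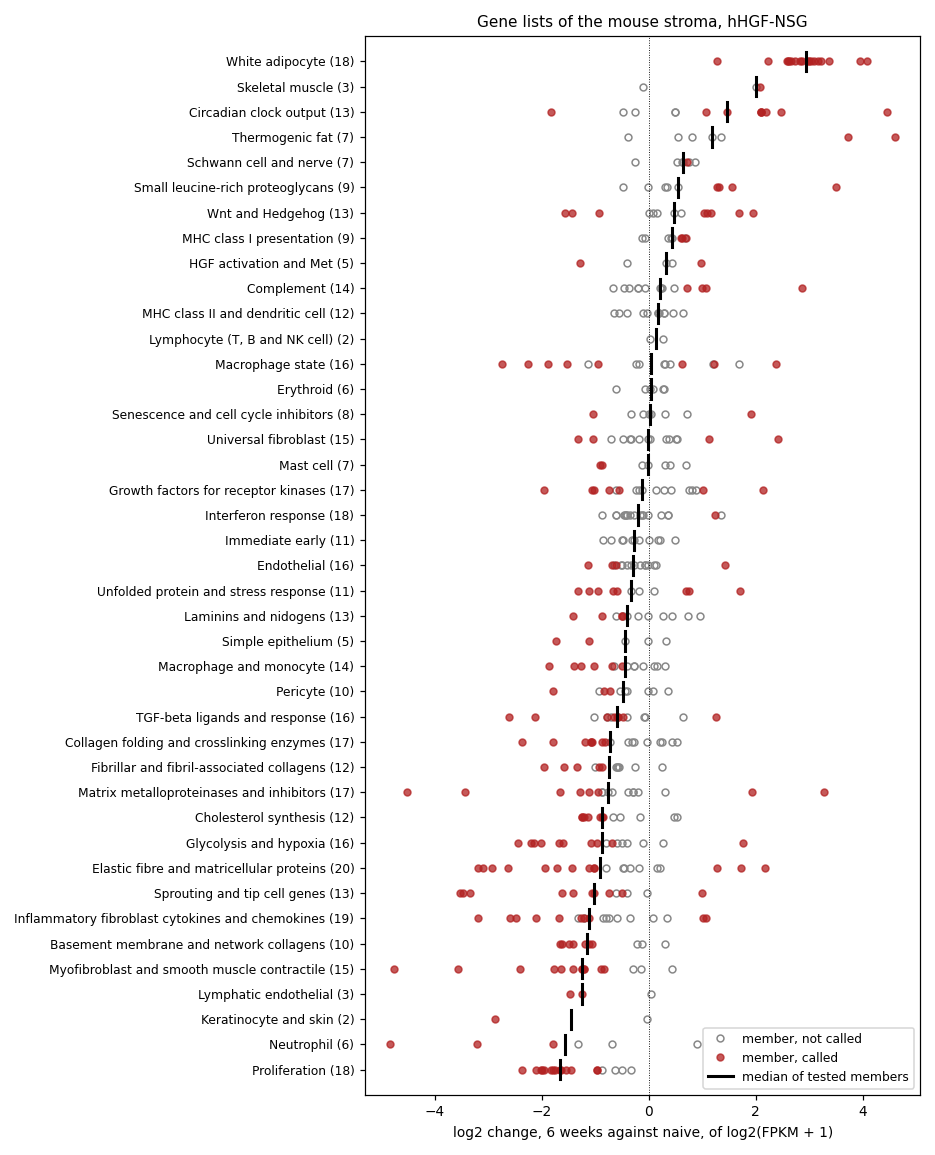
Log2 change at 6 weeks against naive in hHGF-NSG for every tested member of 41 gene lists, filled where limma called the member and open where it did not, with a bar at each list's median and the number tested in brackets. Lists run from the highest median at the top (white fat, 2.93) to the lowest at the bottom (proliferation, -1.66), and fat, clock and proteoglycan lists hold rises where contractile, sprouting and hypoxia lists hold falls.

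Markers of endothelium as a whole had 1 higher and 3 lower of 16 tested members (median -0.3), whereas genes of sprouting vessels had 1 higher and 9 lower of 13 (median -1.03). Over all tested genes 9.67% were called higher and 8.12% lower. Apln, apelin of tip cells at the front of a sprout, fell from 54.7, 29.9 and 26.9 FPKM to 2.5, 2.91 and 2.4 (-3.34, SE 0.29, adjusted p = 1.28e-06). Esm1, another tip cell product, fell from 38.8, 24 and 21.1 to 1.09, 1.43 and 1.85 (-3.52, SE 0.36, adjusted p = 6.59e-06), and Pgf, placental growth factor, from 35, 21.4 and 15.5 to 0.928, 1.27 and 1.18 (-3.48, SE 0.45, adjusted p = 8.6e-05). The groups were well separated in all 3 genes. Angpt2, which loosens vessels before they sprout, fell from 11.1 ± 3.65 to 2.86 ± 0.507.

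Among pan-endothelial genes the falls were smaller, and Cldn5 rose. It went from 32.8 ± 14 to 90.9 ± 37.2 FPKM (1.42, SE 0.42, adjusted p = 0.025), a call lost in 6 alternatives. Pecam1 changed by -0.68 (SE 0.17, adjusted p = 0.0087) and Emcn by -1.13 (adjusted p = 0.00152). Kdr, the main VEGF receptor, was at 15.2, 17.5 and 17.7 FPKM and then 10.3, 15.8 and 11.9, overlapping groups (-0.4, adjusted p = 0.23). Cdh5, the endothelial cadherin, changed by -0.62 (adjusted p = 0.0266), a call lost without naive replicate 1 or 2 or 6 weeks replicate 1 or 3 (adjusted p = 0.0722, 0.0657, 0.0884 and 0.0767). Without naive replicate 1, without naive replicate 2 and without 6 weeks replicate 3 the list had 2 lower members and none higher. Of pericyte genes 3 of 10 fell (median -0.49): Rgs5, which marks pericytes, was steady within groups, at 102, 102 and 96.7 and then 56.7, 61.6 and 62 FPKM (-0.73, SE 0.13, adjusted p = 0.000729), and Ndufa4l2 fell from 76.9 ± 32.5 to 20.5 ± 4.38. Of lymphatic endothelial genes 2 of 3 tested members fell (median -1.25). Flt4, the lymphatic VEGF receptor, fell from 3.97, 5.6 and 6.08 to 1.59, 1.56 and 0.611. Lyve1 changed by -1.25 (adjusted p = 0.0334), a call lost in 7 alternatives, and Pdpn by 0.05 (adjusted p = 0.864). Prox1, Mmrn1 and Reln were too low to test, with naive means of 0.428, 0 and 0.0678 FPKM.

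A group of protease genes on mm10 chromosome 14 held the 2 steepest falls of the 12 listed above, Gzme and Gzmd. Gzmd (56129556 to 56132608, minus strand) was at 57.8, 64.4 and 41.6 FPKM in naive tumours and 0, 0.183 and 0 at 6 weeks, or 63, 105 and 105 reads and then 0, 1 and 0 (-5.69, SE 0.31, adjusted p = 3.54e-09). Gzme (56117626 to 56120625, minus strand) went from 93.6, 181 and 82.6 to 0.226, 0.769 and 0 (-6.45, SE 0.46, adjusted p = 1.1e-07). Gzmc (56231441 to 56234656, minus strand) went from 60.3, 43.6 and 39.3 to 2.09, 2.95 and 0 (-4.38, SE 0.56, adjusted p = 6.87e-05). Granzymes are the death proteases of cytotoxic granules, and since these copies are closely related, the split of reads among them is uncertain. Mcpt8 (56082166 to 56085273, minus strand), a basophil granule protease of the same family, had 20, 34 and 14 reads in naive tumours and 0 in each library at 6 weeks. Against a floor of 3 reads per library its mean was at least 23.5-fold lower. The NK and T cell markers Ncr1 and Cd3e had no read in these libraries.

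Neutrophil genes fell in 3 of 6 tested members (median -1.57), and 3 of the 12 listed had no read in any of the 6 libraries. S100a9, a calcium-binding protein abundant in neutrophils, was at 135, 32.8 and 21.2 FPKM and then 0.794, 0.337 and 0.876 (-4.83, SE 0.6, adjusted p = 5.89e-05), with naive replicate 1 far above the others. Cxcr2, the receptor that draws neutrophils in, fell from 3.48, 4.07 and 1.13 to 0, 0 and 0.15 (-1.8, adjusted p = 0.00179). S100a8, the partner of S100a9, fell by 3.22 on the log2 scale (adjusted p = 0.00864), and without naive replicate 1 its change was -2.43 at an adjusted p of 0.0589.

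Macrophage markers fell in 6 of 14 tested members and none rose (median -0.45). Adgre1, the F4/80 antigen, fell from 116, 96.4 and 81.3 FPKM to 46.1, 42.9 and 52.5 (-1.03, SE 0.19, adjusted p = 0.00111), while Cd68 and C1qa overlapped between the groups (-0.28 and -0.2, adjusted p = 0.615 and 0.608). Cd163 and Mrc1, scavenger receptors of resident macrophages, fell from 30.8, 31.5 and 38.3 to 9.87, 6.87 and 8.84 and from 85.3, 71.5 and 82.2 to 35.6, 26.8 and 36.7 (-1.86 and -1.26, adjusted p = 0.000744 and 0.00049). Ccr2, the receptor of recruited monocytes, dropped from 10.7 ± 2.75 to 3.4 ± 0.75. Of mast cell genes 2 of 7 fell (median -0.02), Kit and Hdc, which makes histamine, by 0.92 and 0.87 on the log2 scale. No mast cell gene was called without naive replicate 1 or without 6 weeks replicate 1. The mast cell proteases Tpsb2, Cma1, Mcpt4 and Cpa3 were not called, with changes of 0.7, 0.4, 0.31 and -0.02. Fcer1a, the remaining tested member, was not called either (-0.12).

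Genes of macrophage states were split, with 3 higher and 5 lower of 16 tested members (median 0.04). Spp1, the secreted phosphoprotein osteopontin, was at 2032, 1835 and 1116 FPKM and then 368, 259 and 143 (-2.74, SE 0.44, adjusted p = 0.000379). Arg1, arginase, fell from 161, 93.7 and 67.6 to 29.6, 22.9 and 12.4 (-2.25, adjusted p = 0.00153) and Hmox1, heme oxygenase, from 148 ± 55.4 to 38 ± 9.07. Cd36, a fatty acid transporter of fat cells, macrophages and capillaries, rose from 48.3, 128 and 96.8 to 294, 546 and 539 (2.38, SE 0.51, adjusted p = 0.00297). With the 6 libraries alone in the fit, 1 higher and 4 lower were called.

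Antigen presentation genes differed by class. None of 12 MHC class II and dendritic cell genes was called (median 0.18) and 1 was called lower without naive replicate 3. Cd74, the class II chaperone, was at 453, 400 and 427 FPKM and then 545, 523 and 489 (0.28, SE 0.24, adjusted p = 0.481). MHC class I genes had 3 higher of 9 (median 0.44), beside 9.67% called higher and a median of 0.06 over all tested genes. Tapbp, which loads peptides, went from 73.8, 71.4 and 70 to 130, 120 and 103 (0.7, SE 0.16, adjusted p = 0.00407). Of 18 interferon-induced genes 1 rose, Ifi27, from 53, 87.5 and 82.1 FPKM to 136, 188 and 197 (1.23, adjusted p = 0.00174), and the list's median was -0.21.

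Proliferation genes of the host fell in 14 of 18 tested members, none rose, and the median of -1.66 was the lowest of the 41 lists. Mki67, which marks dividing cells, was at 3.95, 6.23 and 4.79 FPKM and then 0.391, 0.437 and 0.659 (-1.99, SE 0.22, adjusted p = 1.27e-05). Top2a, the topoisomerase of dividing cells, went from 5.13 ± 1.96 to 0.484 ± 0.257, Ccnb1, cyclin B1, from 4.77 ± 0.263 to 0.375 ± 0.434 and Rrm2, a subunit of ribonucleotide reductase, from 9.91 ± 0.639 to 1.12 ± 0.327. Human MKI67 was lower as well: summed over 3 libraries it had 11382 human reads beside 277 mouse reads in naive tumours and 443 beside 73 at 6 weeks. Mouse Mki67 stood at 2.434 mouse reads per 100 human reads in naive tumours, Top2a at 2.456, Ccnb1 at 2.994 and Rrm2 at 1.237, beside 0.003 for Epcam, 0.053 for Krt19, 0.167 for Muc1 and 1.238 for Esrp1, and how many of them came from human cells was not tested. Of cell cycle inhibitors, Cdkn1c rose from 2.17, 2.61 and 4.87 to 13, 14.4 and 15.5 (1.91, SE 0.31, adjusted p = 0.000398) and Cdkn1a, p21, fell from 38.6 ± 6.65 to 18.1 ± 2.8.

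Genes of glycolysis and hypoxia had 1 higher and 9 lower of 16 tested members (median -0.88). Slc2a1, the glucose transporter GLUT1, fell from 57.5, 35.2 and 30.8 FPKM to 9.99, 7.68 and 9.52 (-2.02, SE 0.31, adjusted p = 0.000289), Slc16a3, which exports lactate, from 27.6 ± 11.4 to 4.07 ± 0.977 and Adm, adrenomedullin, from 45.5 ± 22.2 to 8.52 ± 2.06. Summed over 3 libraries, Slc16a3 had 711 mouse reads beside 13595 human reads in naive tumours and 326 beside 4567 at 6 weeks. Adm had 350 beside 8956 and then 202 beside 55. Whether human reads entered the mouse values of these 2 genes was not tested. Pfkfb3, which makes the activator of phosphofructokinase, was the exception, at 16, 17.4 and 16.2 and then 43.6, 83.3 and 54.4 (1.76, SE 0.29, adjusted p = 0.000494). Cholesterol synthesis genes fell in 7 of 12 tested members (median -0.87), among them Sqle, squalene epoxidase, from 7.17, 8.42 and 4.55 to 2.43, 2.73 and 1.69, and 4 fell without 6 weeks replicate 3. The endoplasmic reticulum chaperones Hspa5 and Hsp90b1 fell from 167 ± 17.9 to 85.7 ± 8.61 and from 164 ± 23.6 to 74.3 ± 5.73, within a stress list of 3 higher and 5 lower of 11, which had 0 and 4 without 6 weeks replicate 3. None of 11 immediate early genes was called (median -0.28). Without 6 weeks replicate 3, 1 was called higher.

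Outputs of the circadian clock mostly rose, with 8 higher and 1 lower of 13 tested members (median 1.46). Dbp, a transcription factor driven directly by the clock (mm10 chromosome 7, 45705088 to 45710203, plus strand), was at 3.25, 1.78 and 3.06 FPKM and then 79, 95.6 and 64.2 (4.45, SE 0.29, adjusted p = 3.13e-08). Its relatives Hlf and Tef rose from 0.192 ± 0.227 to 5.66 ± 1.35 and from 6.7 ± 1.1 to 32 ± 3.28. Nr1d1, the repressor REV-ERB alpha, rose from 14.4, 15.6 and 16.8 to 80.8, 79 and 64.1 (2.19, SE 0.17, adjusted p = 2.86e-07). In the human table DBP went from 1.45 to 12.9 and NR1D1 from 8.43 to 43.6 FPKM. The labels give no hour of collection, so time of day and treatment cannot be told apart for these genes.

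The remaining large rises were in genes of mixed roles. Nnat, neuronatin, an imprinted gene of brain and fat (mm10 chromosome 2, 157560078 to 157562522, plus strand), rose most of all by the rule, from 6.28, 18.4 and 13.8 FPKM to 190, 402 and 391 (4.61, SE 0.6, adjusted p = 8.67e-05). Penk, which encodes the opioid precursor proenkephalin, rose from 2.7, 1.81 and 11.9 to 125, 76.2 and 52.8 (3.98, SE 0.44, adjusted p = 1.47e-05). Apod, apolipoprotein D of fibroblasts and nerve sheaths, was the most abundant of the 12, at 36.4, 49.8 and 64.9 and then 999, 641 and 626 (3.88, SE 0.39, adjusted p = 6.48e-06). Tcf15, a transcription factor of somites and of the endothelium of fat and muscle, had 0, 1 and 2 reads and then 91, 163 and 59. Inmt, a methyltransferase of indole compounds, had 0, 3 and 0 reads and then 137, 166 and 142.

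Markers of other tissues were few. Of skeletal muscle genes 3 of 12 passed the filter on low values, Ckm and Myh4 had at most 1 read in any of the 6 libraries, and Acta1 did not pass the test, at 0.806 ± 0.328 and 7.38 ± 5.16 FPKM (2.01, adjusted p = 0.0616). The 1 called muscle gene, the myosin light chain Myl1, was at 0, 0.285 and 2.4 and then 3.8, 6.54 and 8.05 (2.08, adjusted p = 0.0215). No muscle gene was called without naive replicate 1 or 2 or 6 weeks replicate 2 or 3, and 2 were called without 6 weeks replicate 1. Keratinocyte Krt14 fell from 14.6, 7.06 and 23 to 1.77, 0.701 and 0.65 (-2.87, SE 0.4, adjusted p = 0.000143) while Krt5 had 0 to 3 reads per library. Sox10, a transcription factor of Schwann cells, had 0, 0 and 2 reads in the naive libraries and 10, 8 and 10 at 6 weeks. Of simple epithelial genes 2 of 5 tested members fell (median -0.44): Krt19 was at 13.8, 1.59 and 1.44 FPKM and then 0.223, 0.38 and 0.493 (-1.74, adjusted p = 0.0202), and Esrp1 at 3.08, 2.25 and 1.45 and then 0.69, 0.419 and 0.326 (-1.12, adjusted p = 0.0134). Neither was called without naive replicate 1, which had 29 of the 41 naive Krt19 reads, and 1 was called without 6 weeks replicate 1, 2 or 3. Whether human reads entered these values was not tested. Globin and other erythroid genes were not called in any of 6 tested members (median 0.04). Hba-a1, whose 2 gene copies are near identical and uncertain, was at 884, 709 and 235 and then 467, 401 and 668.

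Gzmd, Apod, Penk and Tnn had already moved after 2 weeks, while Pfkfb3 was called between 2 and 6 weeks and not before. Of 13 clock genes 5 were called higher by 2 weeks, and between 2 and 6 weeks 5 were called higher and 1 lower. In hHGF-NSG, 155 of 14287 genes (1.08%) were called between 2 and 6 weeks, 102 higher (0.714%) and 53 lower (0.371%), against 1008 (7.06%) between naive and 2 weeks, 499 higher (3.49%) and 509 lower (3.56%). These comparisons share libraries with the main one, so their values only stand side by side. Gzmd was at 0 in all 4 libraries at 2 weeks (change from naive -5.77). Apod was at 543, 674, 894 and 613 FPKM and Penk at 90.1, 98.1, 87.6 and 136, levels near those at 6 weeks, and Mmp13 was already at 0.517 to 6.07. Tnn, tenascin N, was at 3.16, 1.64, 1.31 and 2.68 (-2.73 from naive, adjusted p = 0.000189).

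Other genes differed between 2 and 6 weeks. Fbn2 was at 6.83, 10.2, 6.37 and 10.8 FPKM at 2 weeks and changed by -2.2 from there to 6 weeks (SE 0.23, adjusted p = 0.0001). Crtac1, a secreted cartilage and nerve protein, had no read in naive tumours, 0 to 1.53 FPKM at 2 weeks and 5.55, 14.5 and 14.5 at 6 weeks (2.64 from 2 to 6 weeks, adjusted p = 0.0007), and its mean at 6 weeks was at least 16.2-fold above the floor of 3 reads per naive library. The clock outputs Dbp and Nr1d1 rose in both steps (2.62 and 0.99 from naive to 2 weeks, adjusted p = 1.15e-05 and 0.00106): Dbp was at 27.3, 26.4, 17 and 16.7 at 2 weeks (1.84 to 6 weeks, adjusted p = 0.00215) and Nr1d1 at 35.1, 29, 27 and 37.3 (1.2, adjusted p = 0.00103). Pfkfb3 was at 8.82 to 23.1 FPKM at 2 weeks, a range that holds the naive values, and rose afterwards (1.89, adjusted p = 0.00215). Adipoq was at 322, 233, 515 and 126 at 2 weeks, between the naive and the 6 weeks libraries, and its later change did not pass (1.58, adjusted p = 0.151).

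Gli1 and Snai1 went up by 2 weeks (3.25 and 0.81, adjusted p = 1.88e-06 and 0.0251) and then down. Gli1 was at 12.9, 10.8, 17.8 and 11.5 FPKM at 2 weeks, above all libraries at 6 weeks, and fell afterwards (-1.31, adjusted p = 0.033). Snai1, a transcription factor of mesenchymal transition, was at 32.2, 25.9 and 17.2 in naive tumours, 43.4, 38.3, 41.4 and 51.5 at 2 weeks and 18.5, 12.5 and 12.8 at 6 weeks (-1.53 from 2 to 6 weeks, adjusted p = 0.00138). The number of genes called between 2 and 6 weeks moved with single libraries. It was 490 without 2 weeks replicate 3, the library with the highest Adipoq of the 4, and 73, 39 and 31 without replicates 1, 2 and 4. Without 6 weeks replicates 2 and 3 it was 15 and 21, and without the library labelled NSG naive replicate 1 it was 220.

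**Figure D3:**
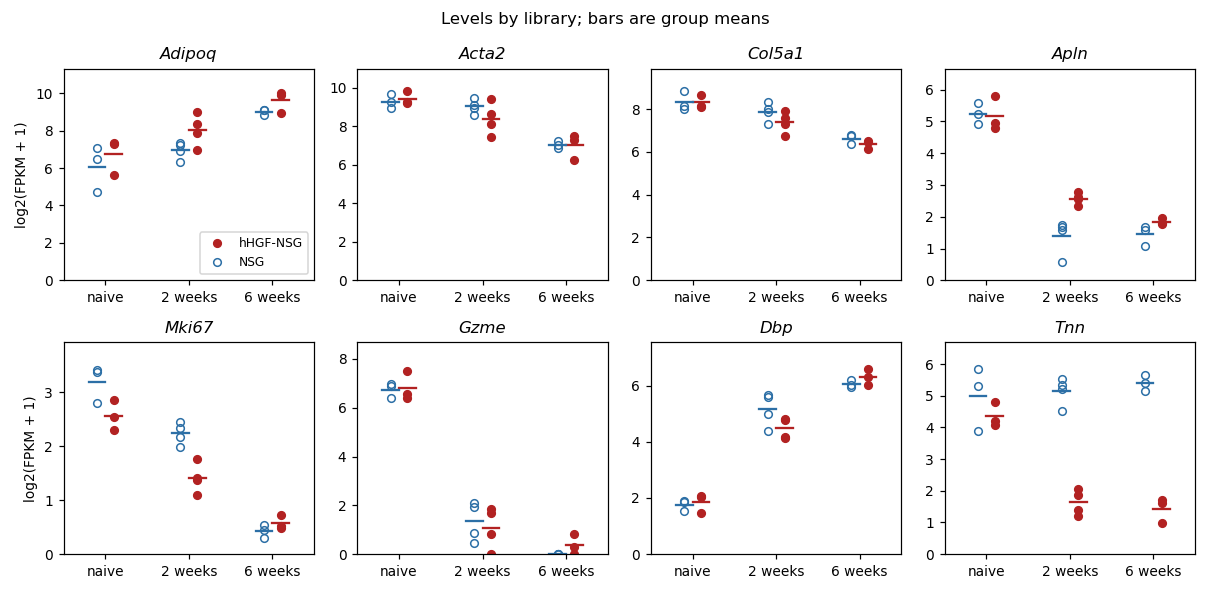
Levels of 8 mouse genes by library on a log2(FPKM + 1) axis that starts at 0, naive, at 2 weeks and at 6 weeks of alectinib, filled for hHGF-NSG and open for NSG, with bars at group means. Gzme is near 0 by 2 weeks in hHGF-NSG and Dbp climbs at both steps, whereas Tnn falls in hHGF-NSG and is as high at 6 weeks as before in NSG.

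To ask what was particular to the hHGF host, the change at 6 weeks was compared with the same change in NSG hosts, which share no library with it. The NSG comparison called 2486 genes (17.4%), of which 1259 rose (8.81%) and 1227 fell (8.59%). Both hosts called 754 genes higher, 54.6% of the hHGF-NSG and 59.9% of the NSG calls, and 743 lower, 64.1% and 60.6%, and 1 gene was called in opposite directions. With that host's library labelled naive replicate 1 left out, 711 and 744 calls were shared. The list counts and Gzmd values that follow include that library. White fat genes rose in 18 of 18 tested members in NSG too (median 2.98), contractile genes fell in 13 of 15 (median -1.69) and proliferation genes in 16 of 18 (median -2.2). Gzmd averaged 53 ± 26.6 FPKM in naive NSG tumours and 0 at 6 weeks, and the difference between hosts was -0.06 (SE 0.44, adjusted p = 0.99).

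The difference between the hosts' responses passed the test in 1 of 14287 genes (0.007%), and 985 had an unadjusted p under 0.05. That gene, the microRNA locus Mir7013, rests on 2, 2 and 4 reads at 6 weeks and lies outside the rule for named genes. No protein-coding gene was called. The lowest adjusted p of a protein-coding gene was that of Tnn (mm10 chromosome 1, 160085029 to 160153580, minus strand), a tenascin of skeletal and skin matrix. It was at 16, 17.4 and 27.1 FPKM in naive hHGF-NSG tumours and 2.03, 2.24 and 0.983 at 6 weeks (-2.94, SE 0.38, adjusted p = 8.6e-05), with 105, 171 and 413 reads and then 57, 74 and 25. In NSG it was at 13.8, 38.4 and 55.9 and then 41.3, 49.1 and 34.3 (0.39, adjusted p = 0.532), which includes the library labelled NSG naive replicate 1. The libraries of the 2 hosts at 6 weeks were far apart, and the naive ones overlapped.

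The difference between hosts for Tnn was -3.33 (SE 0.54, adjusted p = 0.053), which missed the threshold. It was called by limma voom on the recovered reads (-4.02, adjusted p = 0.00359), without the library labelled NSG naive replicate 1 (-2.77, adjusted p = 0.0202) and without NSG naive replicate 4 (-3.74, adjusted p = 0.00724), and its adjusted p was 0.0515 to 0.344 in the other alternatives. Human TNN was at 0 in both states, so no human reads of that gene stood beside it. Without the library labelled NSG naive replicate 1, 5 genes were called, and beside Tnn and Mir7013 these were Tstd3 and the pseudogenes Gm6161 and Rps19-ps3, chosen after their values were seen. With all libraries, the next protein-coding genes after Tnn were Hc, complement C5 (-1.55, adjusted p = 0.0937), and Med9, a Mediator subunit (1.55, adjusted p = 0.164). Without the library labelled NSG naive replicate 1 their host differences were -1.38 and 1.37 (adjusted p = 0.0843 and 0.133). Med9 was at 4.14, 5.85 and 3.58 FPKM and then 14.9, 11.8 and 13.2 in hHGF-NSG, while its change in NSG was -0.16 (adjusted p = 0.667).

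**Figure D4:**
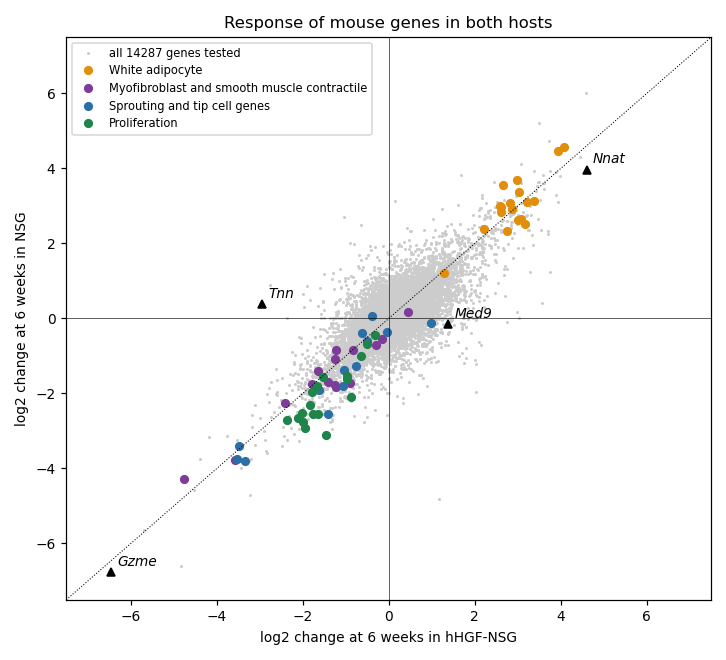
Log2 change of mouse genes at 6 weeks of alectinib in hHGF-NSG (horizontal) and NSG (vertical), with all 14287 tested genes in grey, 4 gene lists in colour, triangles at named genes and a dotted line where both changes are equal. Fat genes lie together at the upper right and contractile, sprouting and proliferation genes at the lower left, while Tnn lies at -2.94 and 0.39.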

How the data were processed

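Bulk RNA-seq of xenografts was deposited as a mouse and a human table of FPKM, computed by the authors, and per the submitters' processing notes mm10 and hg38 (GRCh38) were the builds and DESeq2 was among the tools. The sources used here do not name the aligner, the annotation release or the way reads were assigned to a species. FPKM steps gave whole reads for 100% of the values above 0 (tolerance 0.05 reads), which gave the depths and a count model as an alternative.

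The mouse table listed 54532 genes, and 14287 with at least 1 FPKM in 3 or more libraries were tested. Values were log2(FPKM + 1), with 1 mean per group over all 20 mouse libraries (6 groups), limma 3.58.1 with a mean-variance trend in R 4.3.3, and Benjamini-Hochberg adjustment at 0.05. Python 3.11.15 with pandas 2.3.3, scipy 1.17.1 and matplotlib 3.10.9 made the summaries. In simulated reads, known changes were set at 6 weeks in hHGF-NSG, in genes averaging 5 FPKM or more. The fit recovered 48% of 100 changes of 2-fold and 93% of 100 of 4-fold, with 12 false calls among 14348 genes. Many changes of 2-fold can therefore be missed. Recovery of a difference between hosts was not scored. A difference in response between hosts was an interaction contrast. Errors are SDs over libraries, or limma's SE for a change. The chi-square per degree of freedom between replicates was 6.42 to 10.88 in naive and 17.53 to 22.33 in 6 weeks libraries. This is above counting error, so none was a plain resequencing of another. It cannot tell whether libraries came from separate tumours. Intervals of reads cover counting error only.

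Named genes were the 12 largest changes per direction among called protein-coding genes without overlap and with a mean of at least 5 FPKM in the higher group, and the members of 41 lists with the largest called changes, with a few defining markers. The members and lists were chosen with earlier results of these data known. A fold against a group at 0 used a floor of 3 reads per library. Alternatives were another pseudocount, no filter, median ratio rescaling, a replicate block, voom, thinned reads, the compared libraries alone and each library left out. The fit without the library labelled NSG naive replicate 1 was added for the comparisons in hHGF-NSG after seeing the data.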

Additional observations from a re-analysis of the deposited data

Results flagged for a closer look

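At 2 weeks of alectinib in hHGF-NSG, 10 of 175 named genes had 1 of the 4 libraries far from the other 3, where chance gives about 1 in 20. The gap to the nearest library, as a share of the whole range on the log2(FPKM + 1) scale, exceeded the critical value of 0.829 in each before rounding. It was 0.839 for Cox8b (15 to 96.1 FPKM), 0.84 for Ogn (61.5 to 124), 0.829 for Sfrp4 (4.31 to 31.3) and 0.936 for C2 (21.7 to 26). It was 0.879 for Hspa5 (135 to 188), 0.928 for Zfp36 (22.5 to 41.6) and 0.846 for Per2 (1.33 to 5.59). For Ereg (0 to 0.148 FPKM), Krt19 (0 to 0.373) and Mcpt8 (0 to 0.307) it was 1.0, since 3 of the 4 libraries shared 1 value.

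The response at 6 weeks differed between hosts for Mir7013, by 3.03 (SE 0.37, adjusted p = 0.00214 by limma). It had 0 reads in each naive hHGF-NSG library and 2, 2 and 4 reads at 6 weeks, around the floor of 3 reads.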

How the results depend on the processing

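The 2541 genes called between naive and 6 weeks were 1622 with only the compared libraries, 1645 to 2666 when a library was left out, and 1915 to 2809 in the other alternatives. With voom 1382 were higher and 1427 lower, against 1381 and 1160. The 155 genes called between 2 and 6 weeks were 88 with a pseudocount of 0.1, 92 without a filter, 566 with voom, 47 with thinned reads, 7 with only the compared libraries, and 15 to 490 when a library was left out. The 1 gene called between hosts was 0 with a pseudocount of 0.1, 0 with thinned reads, 0 with only the compared libraries, 3 without a filter, and 1 to 5 when a library was left out. The cause of these moves was not tested, except that fits with fewer libraries have a less precise estimate of spread. Of 162 named genes called, 124 were called in every alternative checked gene by gene. The fit without the library labelled NSG naive replicate 1 was not among these.

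With a replicate block 2366 genes were called between naive and 6 weeks, 27 between 2 and 6 weeks and 0 between hosts. Replicate numbers did not pair the samples: correlations of same-numbered libraries were 0.06, 0.04 and -0.08.

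Direction changed only in 11 named genes, all uncalled. Cd4 was -0.01 with a pseudocount of 0.1 and -0.08 with thinned reads, Hba-a1 0.03 and Alas2 -0.04 with thinned reads, and Tek -0.05 with voom. When a library was left out, the ranges were -0.08 to 0.48 for Itgax, -0.34 to 0.5 for Cd4, -0.01 to 0.3 for Junb, -0.66 to 0.29 for Hba-a1, -0.14 to 0.58 for Hbb-bs, -0.2 to 0.13 for Alas2, -0.6 to 0.02 for Hgf, -0.07 to 0.56 for Lum, -0.07 to 0.1 for Pdgfra, -0.28 to 0.45 for Tek and -0.75 to 0.04 for Cd68. Depth limits low genes most in naive replicate 1, with 1127966 mouse reads.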
